A study of Mus musculus with 16 samples.

Results

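The BCL2 family genes that set whether a T cell lives or dies were followed through the chromatin of cultured mouse CD8+ T cells. The 10 members were Bcl2, Bcl2l1, Mcl1, Bcl2a1b, Bax, Bak1, Bcl2l11, Bid, Bbc3 and Pmaip1, out of 26087 curated RefSeq genes of the mm10 build. They were chosen by name as a family, and the rule used no measured value. Every peak that overlapped a member's gene body or the 30 kb on either side of it was taken from 12 lists, which gave 434 of 214352 peaks over 952 kb. A peak within 1 kb of a transcription start site (TSS) was told apart from a distal peak, which lay in an intron, an exon or between genes. Distances of peaks below run to the nearest TSS of the member, from the summit of an LSD1 or Pol II peak and from the centre of a histone peak.

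Both groups were splenic CD8+ T cells of OT1 mice, in which a transgenic T cell receptor sees a peptide of ovalbumin. The culture ran through 48 h of activation by anti-CD3 and anti-CD28 and then 3 days of expansion in IL-2. It held either vehicle (Veh) or 0.5 μM GSK2879552 (GSK), which blocks the demethylase LSD1 irreversibly. Chromatin immunoprecipitation with sequencing (ChIP-seq) targeted LSD1 itself, RNA polymerase II (Pol II), H3K27ac and the 3 methylation states of H3K4, with 1 library for each antibody and treatment. With no replicates, no spread between libraries could be set beside a difference, and no test was made. Depth cannot be worked out from the peak lists themselves, and a longer list can come from deeper sequencing or from stronger enrichment. The study's sequencing summary gives unequal depths. Unique read pairs were far more in Veh than in GSK for H3K27ac and somewhat more for H3K4me2, more in GSK for H3K4me1 and Pol II, and close for LSD1 and H3K4me3. Whether peaks were called after libraries were brought to equal reads is not given there. List lengths ran from 2751 peaks for H3K27ac in GSK to 40272 for H3K4me1 in GSK. For H3K27ac the Veh list had 7410 peaks. The promoters of all 8 CD8+ T cell marker genes carried H3K4me3 in both treatments, against 1 of 5 B cell genes and 1 of 5 genes of NK, CD4+ or regulatory T cells. Of the 5 myeloid genes, Cd14 carried it in both treatments and Spi1 in Veh alone, and Spi1 also had H3K27ac and Pol II in Veh alone. Of the 8 CD8+ T cell genes, Pol II was at a TSS of 5 in Veh and 6 in GSK, and H3K27ac of 4 and 1. Cd8a had neither in either treatment. No Pol II peak lay at a TSS of the B cell genes or of the NK, CD4+ and regulatory T cell genes. The part of other cells in the results below was not tested.

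BCL2 proteins meet at the outer mitochondrial membrane. The anti-apoptotic members BCL2, BCL-XL (Bcl2l1), MCL1 and A1 (Bcl2a1b) hold the effectors BAX and BAK (Bak1) in check, and the BH3-only proteins BIM (Bcl2l11), BID, PUMA (Bbc3) and NOXA (Pmaip1) release or activate them, after which pores open and cytochrome c leaves the mitochondrion. In T cells IL-2 supports survival in part through BCL2 and MCL1, while BIM drives the death of activated cells once such signals fade. H3K4me1 and H3K4me2, marks of enhancers and promoter flanks, are the substrates that LSD1 demethylates. H3K4me3 marks active promoters, and H3K27ac marks active promoters and enhancers.

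All 10 members carried H3K4me3 at a TSS in both treatments, and 9 carried Pol II in both. When −log10 q of at least 3 was required of Pol II peaks, as the histone lists do, the members with Pol II at a TSS were 8 in Veh and 5 in GSK. LSD1 lay at a TSS of 6 members in Veh and 8 in GSK. H3K4me1 was at 5 members in Veh and 7 in GSK, H3K4me2 at 3 and 2, and H3K27ac at 8 and 3. Over all curated genes a TSS peak was found in Veh and GSK at 36.5% and 41.8% for LSD1, 30.4% and 36.9% for H3K4me1, 39.2% and 28.3% for H3K4me2, 50.1% and 51.3% for H3K4me3, 20.6% and 8.61% for H3K27ac, and 29.4% and 25% for Pol II. The shares of the 10 members thus lay above those of all genes for every antibody but H3K4me2, for which they lay below. All genes include 48.4% with no H3K4me3 at a TSS in either treatment, so this background is unlike the members. The higher LSD1 share was not particular to them. LSD1 lay at 6 in Veh and 8 in GSK of 10 apoptosome and caspase genes, but at 5 in each of 13 other BCL2 relatives.

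**Figure D1:**
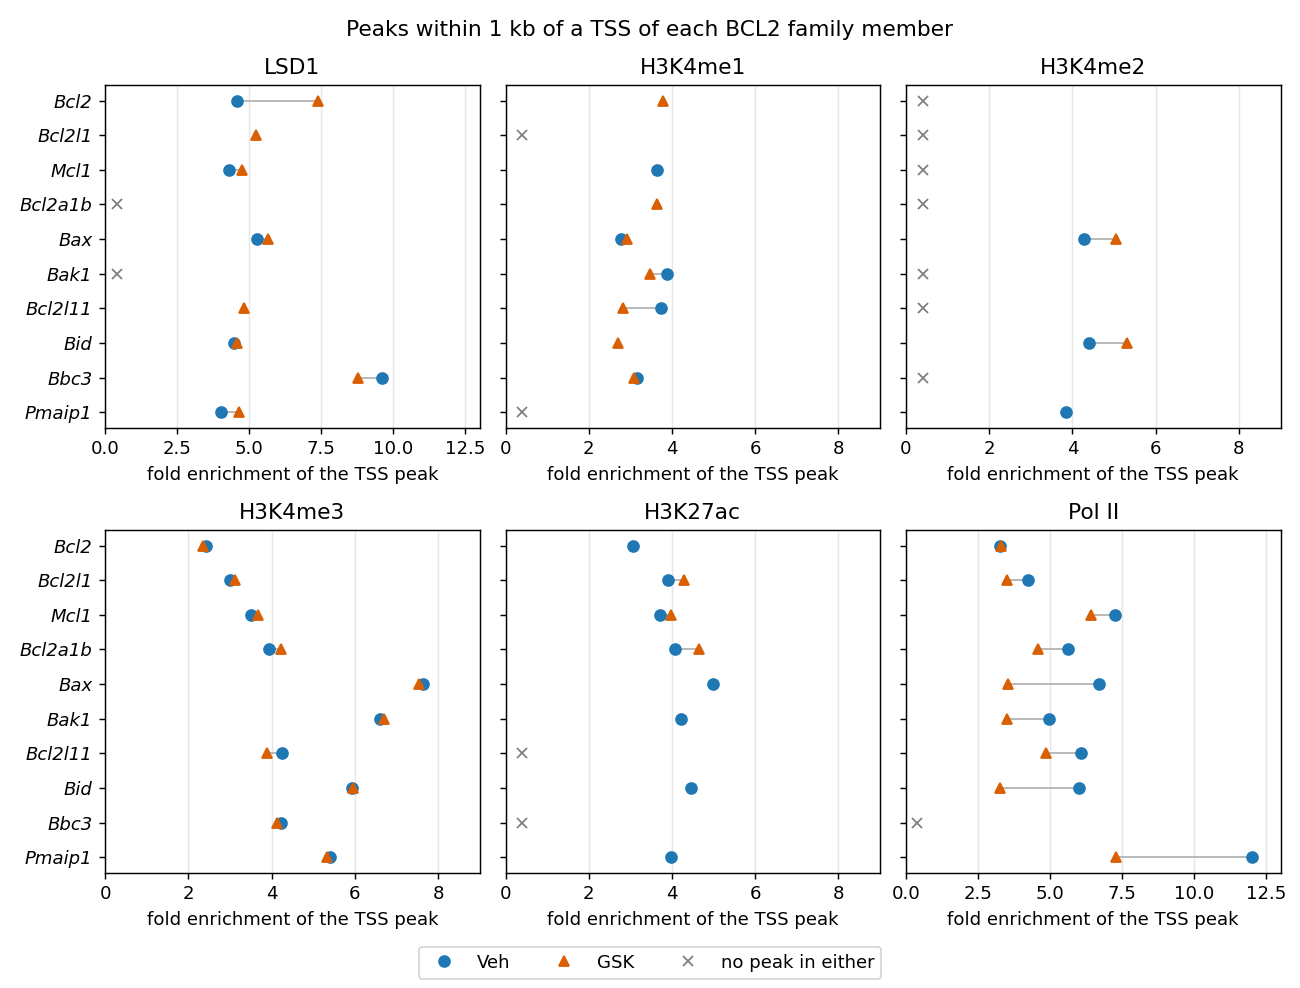
Fold enrichment (x axis, ratio of ChIP signal to local background) of the peak within 1 kb of a TSS of each member (y axis), in 1 panel per antibody. Circles are the Veh library, triangles the GSK library and crosses members with no peak in either. H3K4me3 values barely moved, Pol II fell most at Pmaip1, Bax and Bid, and LSD1 rose most at Bcl2.

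Fold enrichment at TSSs with a peak in both lists was compared as log2 of GSK over Veh, after the median over all such TSSs of that antibody had been subtracted. That median was 0.20 for LSD1, -0.04 for H3K4me1, 0.05 for H3K4me2, 0.02 for H3K4me3, 0.24 for H3K27ac and -0.30 for Pol II. A change of 2-fold or more in either direction on this centred scale was met at 0.822% of 9733 TSSs for LSD1 and at 0.209% of 6707 for Pol II. For H3K4me1, H3K4me2, H3K4me3 and H3K27ac it was met at 0% of 8205, 8049, 15540 and 2591 TSSs. No member passed it for any antibody, and the largest centred change was 0.61 in size.

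For Pol II the anti-apoptotic and the pro-apoptotic members fell on opposite sides of the median of all TSSs. All 4 anti-apoptotic members had centred log2 values above 0, from 0.01 to 0.31 with a median of 0.08. All 5 pro-apoptotic members with a Pol II peak at a TSS lay below 0, from -0.61 to -0.02 with a median of -0.42. The middle of all 6707 shared TSSs, from the 25th to the 75th percentile, ran from -0.22 to 0.22, so Bcl2l1, Mcl1, Bcl2a1b, Bak1 and Bcl2l11 lay inside it, Bcl2 above it, and Bax, Bid and Pmaip1 below it. Without centring, GSK was lower than Veh at 8 of 9 members, the exception being Bcl2. When −log10 p was used in place of fold, the same 4 members were above 0 and the same 5 below. Both values describe the same peaks of the same libraries, so this is no separate support for the split. Several of these values rest on a weak peak. The −log10 q was below 3 for Bcl2 in Veh (2.84) and for Bcl2l1 (2.95), Bax (2.81), Bak1 (2.32) and Bid (1.63) in GSK. With 1 library a treatment, the error of this split cannot be given. The members were grouped by role with their values in view.

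Bcl2 encodes the founding anti-apoptotic protein of the family and spans chr1:106538176-106714290 on the minus strand. Its LSD1 peak at the TSS had a fold of 4.58 in Veh and 7.38 in GSK, and −log10 p went from 10.8 to 24.5. The centred log2 value of 0.49 was higher than at 92.6% of shared LSD1 TSSs, and was the largest of the 6 members with LSD1 in both treatments. H3K4me1 near the TSS was counted in GSK alone (3.79), but that region overlapped a Veh region that ended 1.07 kb from the TSS. A weak second LSD1 peak in exon 1, 1.72 kb downstream of the TSS, was in the GSK list alone with a fold of 2.82. Pol II at the TSS was 3.28 in Veh and 3.3 in GSK, a weak peak in both. A further Pol II peak 1.68 kb downstream, with a fold of 4.02, was in the Veh list alone. The promoter is GC-rich, with 76% G and C and 7 matches to the SP1 box in the 300 bases from 250 before the TSS to 50 after it. The 200 bases before the TSS, from the coding strand of GRCm38.p6 (mm10) as held by RefSeq, are shown because the LSD1 peaks of both treatments overlapped them. Capitals mark SP1 boxes (GGGCGG on either strand).

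Bcl2 promoter, chr1:106714291-106714490, minus strand: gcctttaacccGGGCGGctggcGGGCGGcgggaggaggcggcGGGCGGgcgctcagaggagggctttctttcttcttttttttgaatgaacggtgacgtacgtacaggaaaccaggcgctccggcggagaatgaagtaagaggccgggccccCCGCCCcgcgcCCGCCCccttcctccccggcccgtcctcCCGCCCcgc

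H3K4me3 over the Bcl2 promoter was 3942 bp wide in Veh and 3933 bp in GSK, wider than nearly every other region of those lists (99.9th percentile by width in each). Its fold of 2.42 and 2.36 lay at the 0.856th and 0.859th percentile of the lists, and the fold of a broad region is an average over its width. Broad H3K4me3 was shared by other members. At Bcl2l1 it was 3129 and 2981 bp wide (99.2nd and 99th percentile), at Mcl1 2407 and 2339 bp (96.6th and 96.4th) and at Bcl2l11 2236 and 2277 bp (95th and 96th). Bcl2a1b followed with 1778 and 1751 bp, Pmaip1 with 1550 and 1556 bp, Bak1 with 1419 and 1374 bp, and Bid with 1389 and 1349 bp. Bbc3 with 1146 and 1143 bp and Bax with 1132 and 1121 bp were the narrowest and lay near the median widths of the lists, 1034 and 1008 bp. The order of the widths was the same in both treatments.

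The order by −log10 p of the H3K4me3 peak was another one. Bax had 156 in Veh and 144 in GSK, and Bak1 152 and 145. Bcl2l11 (94.9 and 83.3), Bbc3 (93.5 and 96.2), Pmaip1 (91.7 and 77), Bid (84 and 76.6) and Mcl1 (65.1 and 81.2) lay between. Their order differed between the treatments. Bbc3 passed Bcl2l11 in GSK, and Mcl1, the lowest of these in Veh, passed both Pmaip1 and Bid. Bcl2l1 (45.4 and 44.2), Bcl2 (43.4 and 37.7) and Bcl2a1b (17.4 and 17.2) were lowest. Centred H3K4me3 changes ran from -0.14 at Bcl2l11 to 0.08 at Bcl2a1b, with a median of -0.03. None of the 20 H3K4me3 TSS peaks at the loci in either list lacked a counterpart (0 of 20 in each, Wilson 95% upper limit 16.1%), beside 0.661% of all such peaks in Veh and 3.18% in GSK.

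The distal sites of Bcl2 lay far from its promoter. Intron 1 fills most of the gene, and 4 of its LSD1 peaks were found in both treatments, between 101 and 126 kb downstream of the TSS. The strongest LSD1 site of the locus was 198 kb downstream, between genes past the 3′ end, at chr1:106515559-106516168. Its fold was 8.52 in Veh and 6.61 in GSK, and −log10 p fell from 31.1 to 17. This site also held H3K27ac in both treatments, with folds of 4.67 and 5.17, and in Veh it also lay under H3K4me1 and a weak Pol II peak (2.96). The GSK H3K4me1 region of this site lay beside the LSD1 peak, not on it, and no GSK Pol II peak was found. The site at 126 kb went the other way, from 5.8 to 6.86, and so did the site at 113 kb, from 4.21 to 5.65. At 107 kb the folds were 4.2 and 4.53, and at 101 kb 4.1 and 3.45. All 5 distal LSD1 peaks of Bcl2 in Veh thus had a GSK counterpart, whereas over all distal peaks 65.1% of the Veh LSD1 list had none. Other loci with such Veh peaks kept fewer. Those without a counterpart were 3 of 5 at Bcl2l1, 3 of 5 at Bcl2l11, 2 of 4 at Bbc3 and 1 of 3 at Mcl1. The only one of Bak1 and the only one of Pmaip1 lacked it too.

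**Figure D2:**
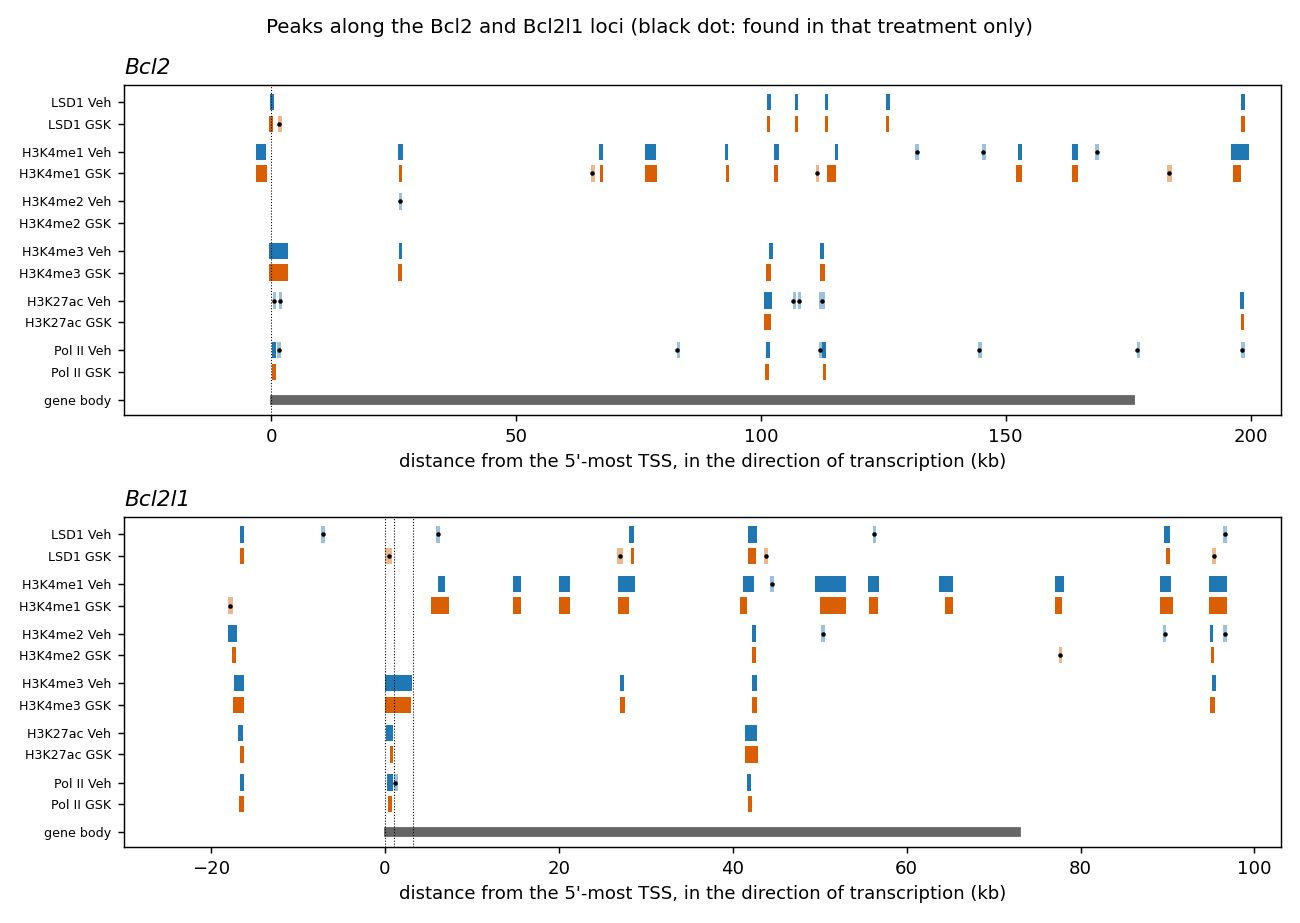
Peaks of the 12 lists along the Bcl2 and Bcl2l1 loci, by distance in kb from the 5′-most TSS (x axis). Blue marks Veh and orange GSK, paler bars with a black dot are peaks found in that treatment only, and dotted lines are TSSs. At Bcl2l1 the text counts from the nearest of 3 TSSs, so some of its sites plot a few kb further out. At Bcl2 the LSD1 sites past 100 kb recur in both treatments, and Pol II has 9 peaks in Veh against 3 in GSK.

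Peaks of H3K27ac and Pol II were fewer at Bcl2 in GSK. H3K27ac had 7 in Veh and 2 in GSK. Those in both lists lay 101 kb (3.16 in Veh, 3.92 in GSK) and 198 kb downstream, and the 5 in Veh alone had folds of 2.5 to 3.07, the TSS peak among them. The Veh H3K27ac library was the deeper one. Pol II had 9 peaks in Veh and 3 in GSK, and for Pol II the GSK library was the deeper one. The part of depth in these numbers was not tested. The 6 Veh Pol II peaks without a counterpart were the one at 1.68 kb and 5 weaker ones between 83.1 and 198 kb, with folds of 2.77 to 3.12. The −log10 q of those 5 was only 0.653 to 1.68, against 5.56 at 1.68 kb, so the difference in number rests mostly on peaks near the floor of the list. The intronic Pol II peaks at 113 kb (5.34 in Veh, 4.02 in GSK) and 101 kb (3.92 and 2.84) were in both lists, each on or near an H3K4me3 peak that was in both lists too. At 113 kb the H3K4me3 folds were 4.08 and 4.74, and at 102 kb 4.64 and 3.97. No curated TSS lies there.

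Bcl2l1 encodes BCL-XL, which protects cells after activation, and spans chr2:152758732-152831728 on the minus strand with 3 TSSs. Here LSD1 at the promoter was in the GSK list alone, where its fold was 5.24 (−log10 p 10.9). The nearest LSD1 peak of the Veh list lay 5.05 kb from it. Pol II at the promoter was 4.22 in Veh and 3.51 in GSK (centred 0.04), and H3K27ac was 3.91 and 4.29. LSD1 sites along the locus numbered 8 in each list, but those in 1 list alone were 4 in Veh and 4 in GSK. The intron 2 site 53 kb downstream had a fold of 4.77 in Veh and no GSK peak, while H3K4me1 lay over it in both treatments. The site 86.8 kb downstream, past the 3′ end, was kept with 4.85 and 5.18. The strongest LSD1 peak in Veh lay at the TSS of Gm32211, a transcript inside intron 2, where the fold went from 8.14 to 4.27. The 200 bases around the LSD1 summit of the GSK-only promoter peak, between the TSSs and outside curated exons, are given on the plus strand and hold no whole match to the motifs searched.

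Bcl2l1 promoter LSD1 summit, chr2:152831067-152831266, plus strand: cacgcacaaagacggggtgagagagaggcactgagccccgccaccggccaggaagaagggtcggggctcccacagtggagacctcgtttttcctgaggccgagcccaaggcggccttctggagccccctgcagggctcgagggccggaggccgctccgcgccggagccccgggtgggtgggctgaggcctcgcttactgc

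Mcl1 encodes a short-lived anti-apoptotic protein that T cells need at all stages, and spans chr3:95658721-95663179 on the plus strand. It had the strongest Pol II peak of the anti-apoptotic members, with folds of 7.27 in Veh and 6.43 in GSK (centred 0.12). LSD1 at its TSS was 4.31 and 4.76, and H3K27ac 3.71 and 3.97. H3K4me1 at the promoter was in the Veh list alone with 3.64, and the nearest GSK peak lay 6.05 kb from the TSS. Downstream, Pol II at 10.1 kb was in both lists (3.43 and 3.52), with H3K27ac there in Veh alone at 2.85. At 14.3 kb an LSD1 peak of fold 2.99 and 2 Pol II peaks nearby, of 2.98 and 3.32, were in Veh alone, while H3K4me3 lay there in both treatments. A start of Gm52627, a transcript that RefSeq predicts and does not curate, lies within 1 kb of the LSD1 peak.

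Bcl2a1b encodes A1, an anti-apoptotic protein induced by antigen receptor signals, and spans chr9:89199273-89207838 on the plus strand. It is 1 of several near-identical copies, and reads that match more than 1 copy are lost where mapping is unique, so its values are uncertain. No LSD1 peak lay anywhere in its locus in either list. Pol II was 5.62 in Veh and 4.59 in GSK (centred 0.01), H3K27ac 4.08 and 4.64, and H3K4me3 3.94 and 4.22. H3K4me1 within 1 kb of the TSS was counted in GSK alone, with a fold of 3.65, but that region overlapped a Veh region that ended 1.21 kb away. H3K27ac at the neighbouring Mthfs promoter (6.18) was in Veh alone, as were both Pol II peaks there (3.31 and 6.02). The Bcl2a1b promoter held 46.7% G and C, the lowest of the 14 member promoters with a sequence, and a CpG observed-to-expected ratio of 0.247, against medians of 52.7% and 0.384 over 32851 promoters. It is shown as the GC-poor end of the family, with its single SP1 box in capitals.

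Bcl2a1b promoter, chr9:89199073-89199272, plus strand: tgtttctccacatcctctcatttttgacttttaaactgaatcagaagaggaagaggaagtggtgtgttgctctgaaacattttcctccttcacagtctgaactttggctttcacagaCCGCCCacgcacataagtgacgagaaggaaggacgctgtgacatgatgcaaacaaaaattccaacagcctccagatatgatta

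Bax and Bak1 encode the pore-forming effectors. Bax lies at chr7:45461695-45466898 on the minus strand. Its Pol II peak at the TSS fell from a fold of 6.7 in Veh to 3.55 in GSK, and −log10 p from 14.5 to 6.27. The centred log2 value of -0.61 was lower than at all but 3.12% of shared Pol II TSSs. The Pol II peak of the adjacent gene Ftl1, 7.07 kb away, was 12.6 and 10.9, a smaller step than at Bax. LSD1 at Bax was 5.27 and 5.64, H3K4me2 4.29 and 5.04, and H3K4me3 7.65 and 7.55, which was the highest H3K4me3 fold of the family. H3K27ac was 4.99 in Veh with no GSK peak within 71.2 kb of the TSS.

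Bak1 lies at chr17:27019812-27028627 on the minus strand and shares its start region with Ggnbp1. It carried no LSD1 at its TSS in either list. Pol II was 4.95 in Veh and 3.5 in GSK (centred -0.20), H3K4me3 6.61 and 6.7, and H3K4me1 3.87 and 3.46. H3K27ac was 4.22 in Veh alone. Distal LSD1 16.4 kb downstream (4.78) was in Veh alone, and a site 30.3 kb downstream (3.77) in GSK alone. The promoter is shown as the other member without LSD1. It holds no SP1 box, and its CpG ratio of 0.435 lies at the 53.8th percentile of all promoters. Its only match is to the RUNX motif (TGTGGT), in the part of the window that is not printed.

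Bak1 promoter, chr17:27028628-27028827, minus strand: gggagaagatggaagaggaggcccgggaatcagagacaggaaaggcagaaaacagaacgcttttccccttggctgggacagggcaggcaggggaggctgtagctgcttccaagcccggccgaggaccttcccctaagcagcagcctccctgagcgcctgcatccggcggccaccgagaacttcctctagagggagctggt

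Bcl2l11 encodes BIM and spans chr2:128126038-128162547 on the plus strand with 2 TSSs. It changed more than any other member in its number of H3K4me1 regions, from 6 in Veh to 12 in GSK, while the other 9 loci held 67 and 68. The GSK H3K4me1 library was the deeper one. The 5 GSK-only distal regions lay 22.5 and 8.49 kb upstream, and 5.87, 32.5 and 52.4 kb downstream, with folds from 2.46 to 4.05 and −log10 p from 5.7 to 7.98. A single wide Veh region upstream of the promoter was matched by 2 smaller regions in GSK, which adds 1 to the GSK number without a new site. The Veh regions all had a GSK counterpart. H3K4me1 at 1.21 kb past the second TSS was 4.75 and 4.78. Over all distal H3K4me1 peaks, 24.1% of the GSK list and 12.3% of the Veh list lacked a counterpart.

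LSD1 around the BIM promoter was placed differently in the 2 lists. In GSK there were peaks 0.265 kb before the first TSS (fold 4.82, −log10 p 14.1) and 0.191 kb after the second (3.15, 6.22), and in Veh neither TSS had a peak within 1 kb. The Veh list held instead a peak 1.87 kb upstream (3.51, 8.29). The GSK list had another 2.82 kb upstream (3.26, 6.72). Pol II at the first TSS was 6.08 in Veh and 4.87 in GSK (centred -0.02), and H3K4me3 4.25 and 3.9. No H3K27ac peak lay at the promoter in either list. The strongest LSD1 site of the locus was 15.1 kb upstream, in intron 17 of the neighbouring gene Acoxl. Its fold rose from 7.56 to 11.3, at the 94.8th and 99.3rd percentile of the lists, and −log10 p from 16.1 to 28.3. H3K4me1 lay on it in both treatments, at 3.78 and 3.98. The intron 3 site 25.4 kb downstream was close to level with 5.19 and 4.96, and the H3K27ac peak 26 kb downstream (3.44) was in Veh alone.

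The sequences at these sites are shown so that the GSK-only promoter peak and the 2 distal sites found in both treatments can be compared. Capitals mark whole matches on either strand, here FOXO (GTAAACA) and SP1 boxes in the first, ETS (CCGGAAG) in the second, and RUNX and E-box (CACGTG) in the third.
Bcl2l11 promoter LSD1 summit in GSK, chr2:128125673-128125872, plus strand: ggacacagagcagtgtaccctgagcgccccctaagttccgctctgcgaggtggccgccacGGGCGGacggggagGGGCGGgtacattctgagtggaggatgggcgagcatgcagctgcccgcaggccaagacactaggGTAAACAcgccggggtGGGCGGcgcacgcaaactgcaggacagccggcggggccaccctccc
Bcl2l11 upstream LSD1 summit at 15.1 kb, chr2:128110827-128111026, plus strand: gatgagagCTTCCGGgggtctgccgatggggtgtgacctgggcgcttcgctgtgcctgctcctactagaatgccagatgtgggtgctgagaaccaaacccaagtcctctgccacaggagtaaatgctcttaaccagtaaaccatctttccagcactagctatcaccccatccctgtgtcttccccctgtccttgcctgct
Bcl2l11 intron 3 LSD1 summit at 25.4 kb, chr2:128152859-128153058, plus strand: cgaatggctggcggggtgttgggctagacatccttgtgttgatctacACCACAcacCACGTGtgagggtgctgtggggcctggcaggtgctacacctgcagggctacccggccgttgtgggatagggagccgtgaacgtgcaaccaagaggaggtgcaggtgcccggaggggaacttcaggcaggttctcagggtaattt

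**Figure D3:**
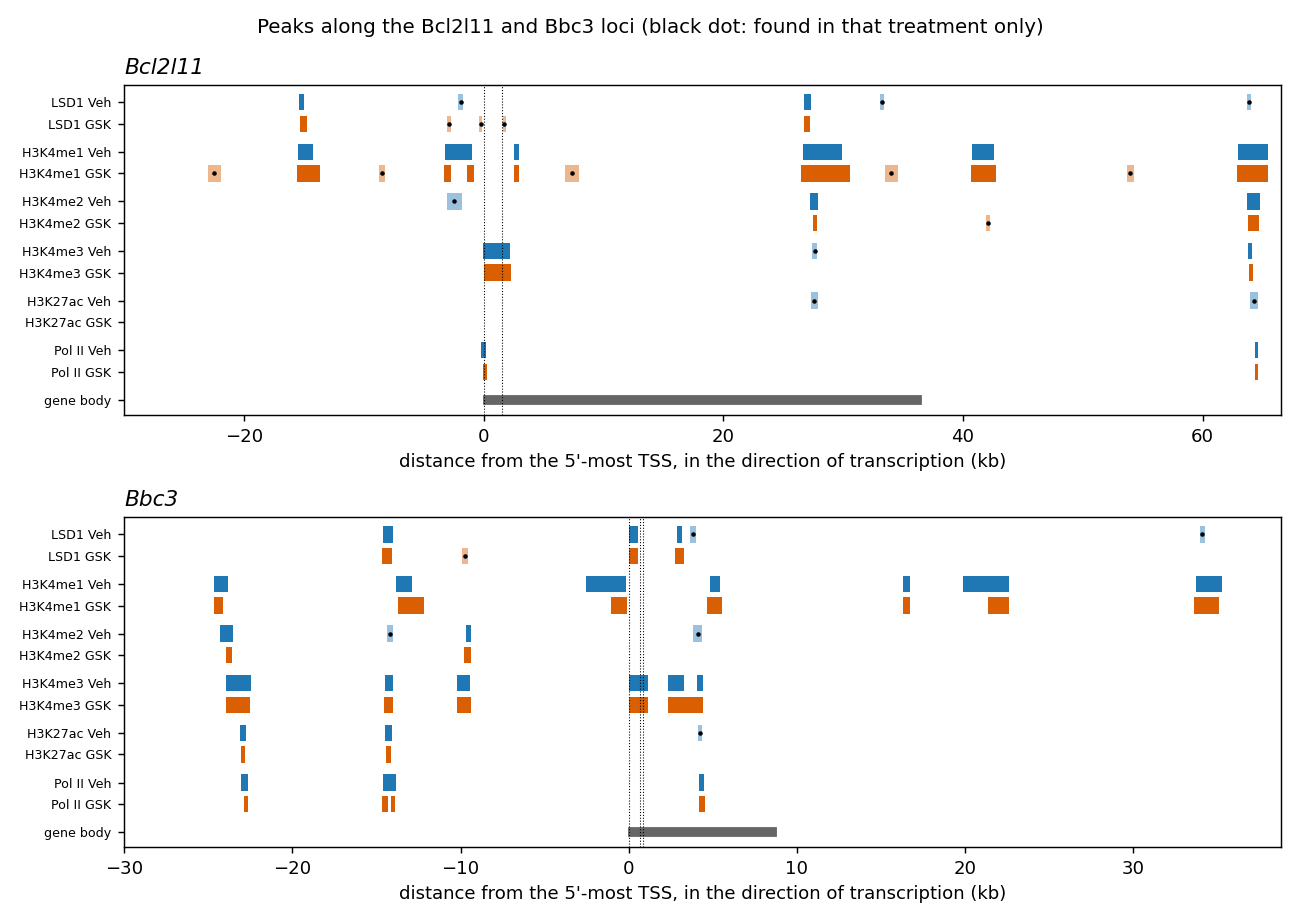
Peaks of the 12 lists along the Bcl2l11 and Bbc3 loci, by distance in kb from the 5′-most TSS (x axis). Blue marks Veh and orange GSK, paler bars with a black dot are peaks found in that treatment only, and dotted lines are TSSs. Bcl2l11 shows 12 H3K4me1 regions in GSK against 6 in Veh, and Bbc3 carries LSD1 over its promoter and at the upstream site in both.

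Bid, whose protein is cut by caspases to its active form, lies at chr6:120893119-120916824 on the minus strand. Pol II at its TSS fell from 6.01 in Veh to 3.28 in GSK, and −log10 p from 12.4 to 4.85. The centred log2 value was -0.57, lower than at all but 4.25% of shared TSSs, and -1.05 by −log10 p. LSD1 stood at 4.48 and 4.59 and H3K4me3 at 5.93 and 5.95. H3K4me2 was 4.39 and 5.32 (centred 0.23, above 88.9% of shared TSSs). H3K27ac was 4.45 in Veh alone, and a weak H3K4me1 peak upstream of the TSS (2.7) in GSK alone.

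Bbc3 encodes PUMA, a p53 target that binds every anti-apoptotic member, and spans chr7:16309583-16318334 on the plus strand with 3 TSSs. It had the strongest LSD1 peak at any TSS of the family in both treatments, with a fold of 9.6 in Veh and 8.78 in GSK, at the 98.1st and 97.4th percentile of the lists, and −log10 p of 68.2 and 58. The centred log2 value was -0.33. Despite this promoter peak and H3K4me3 at 4.22 and 4.13, no Pol II and no H3K27ac peak lay within 1 kb of a curated TSS. Pol II was found in intron 3, 3.57 kb downstream in Veh (5.52) and 3.54 kb in GSK (5.78), with H3K4me3 over it in both. RefSeq predicts a Bbc3 start within 1 kb, which is not curated. H3K27ac over it (3.75) was in Veh alone.

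Another LSD1 site lay 14.4 kb upstream of Bbc3, at chr7:16294917-16295531, between genes. Its fold rose from 6.4 to 8.2 and −log10 p from 23.9 to 35, and that GSK −log10 p, though not the fold, was the highest of any distal LSD1 peak at the 10 loci. The site held H3K4me3 (4.46 in Veh, 5.23 in GSK), H3K27ac (5.67 and 5.39) and Pol II (3.75 and 4.24) in both treatments, and H3K4me2 in Veh alone. Thus 3 marks of an active promoter stood on it with no TSS in RefSeq or GENCODE within 1 kb. LSD1 9.71 kb upstream (4.2) was in GSK alone, on a site that carried H3K4me3 and H3K4me2 in both treatments, and the intron 2 peak went from 2.75 to 4.02. The upstream site is shown because its LSD1 peak had the highest −log10 p of the distal LSD1 peaks at the loci. The Bbc3 promoter is shown because the LSD1 peak near it had the highest at a TSS of the family. The printed promoter bases end before that peak, which started at 16309616 in Veh and 16309626 in GSK. Capitals mark SP1 boxes in both sequences, an NF-kB match (GGNNTTTCC, N any base) in the promoter and an ETS match upstream.
Bbc3 promoter, chr7:16309383-16309582, plus strand: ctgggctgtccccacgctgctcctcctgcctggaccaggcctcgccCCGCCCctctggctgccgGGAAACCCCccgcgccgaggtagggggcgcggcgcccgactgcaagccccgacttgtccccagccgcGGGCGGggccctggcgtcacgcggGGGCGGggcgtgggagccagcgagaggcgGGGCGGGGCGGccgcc
Bbc3 upstream LSD1 summit at 14.4 kb, chr7:16295039-16295238, plus strand: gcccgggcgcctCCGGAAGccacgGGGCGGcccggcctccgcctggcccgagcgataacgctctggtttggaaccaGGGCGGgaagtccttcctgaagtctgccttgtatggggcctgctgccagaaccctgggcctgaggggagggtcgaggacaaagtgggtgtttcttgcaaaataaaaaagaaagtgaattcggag

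Pmaip1 encodes NOXA, which binds MCL1 and A1, and spans chr18:66458604-66465558 on the plus strand. It had the highest Pol II fold of the family at a TSS, 12 in Veh and 7.3 in GSK, with −log10 p of 45.5 and 22.3. The centred log2 value of -0.42 was above that of 11.3% of shared TSSs, and Pmaip1 still stood at the 96.6th percentile of the GSK list. LSD1 was 4.02 and 4.63 and H3K4me3 5.4 and 5.34. H3K27ac (3.98) and H3K4me2 (3.85) at the TSS were in Veh alone. LSD1 5.15 kb upstream, with a fold of 5.72, was in Veh alone and had the highest fold of the LSD1 peaks at the loci found in a single treatment. H3K4me1 lay over it in both treatments (3.87 and 3.84).

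About 12 kb downstream of the Pmaip1 TSS lay a site with the features of an active promoter and no TSS in RefSeq or GENCODE within 1 kb. H3K4me3 there was 8.29 in Veh and 10.1 in GSK, higher than at the Pmaip1 promoter itself in both. Pol II was strong in both lists (96.1st and 97.6th percentile). While Pol II at the promoter went from 12 to 7.3, it went from 8.83 to 8.09 here, and a second Pol II peak 12.9 kb downstream (4.29) was in Veh alone. H3K27ac (4.59) was in Veh alone, and an LSD1 peak (4.01) in GSK alone.

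H3K27ac needs its list lengths and depths beside it, since the Veh library was far deeper and its list longer. Of 8 members with H3K27ac at a TSS in Veh, Bcl2l1, Mcl1 and Bcl2a1b kept it in GSK, and Bcl2, Bax, Bak1, Bid and Pmaip1 did not. Over all curated genes 5366 had it in Veh, 3207 of them in Veh alone, a share near that of the members. Ranked by −log10 p, the Veh peaks of Bcl2 (rank 3556), Bak1 (4142), Bid (3070) and Pmaip1 (4266) lay beyond 2751, the length of the GSK list, and that of Bax (1352) lay within it. So did those of Bcl2l1 (2013) and Mcl1 (2714), while the Veh peak of Bcl2a1b (3632) did not. With both lists cut to 2751 peaks, 3 members had the mark in each treatment. They were Bcl2l1, Mcl1 and Bax in Veh, and Bcl2l1, Mcl1 and Bcl2a1b in GSK. The ratio of GSK to Veh peaks at the loci went from 0.36 to 0.818. The cut makes the whole lists equal in length by construction, so a higher ratio at the loci was built into it. The part of depth in this was not tested.

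Counted over the 10 loci, LSD1 had 37 peaks in Veh and 35 in GSK, a ratio of 0.946 beside 0.937 for the whole lists. For H3K4me1 there were 73 and 80 (1.1 beside 1.17), for H3K4me2 29 and 18 (0.621 beside 0.62), for H3K4me3 35 and 34 (0.971 beside 1.07) and for H3K27ac 25 and 9 (0.36 beside 0.371). These 5 ratios lay close to those of their lists. Pol II differed, with 36 and 23 peaks, a ratio of 0.639 beside 0.985 for the lists of 15638 and 15401 peaks. Its Wilson-based 95% interval, 0.381 to 1.07, which covers counting error only, holds the whole-list ratio. Bcl2 gave 6 of the 13 peaks by which the 2 numbers differ, Mcl1 and Bcl2a1b 2 each, and Bbc3 had 1 more peak in GSK.

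**Figure D4:**
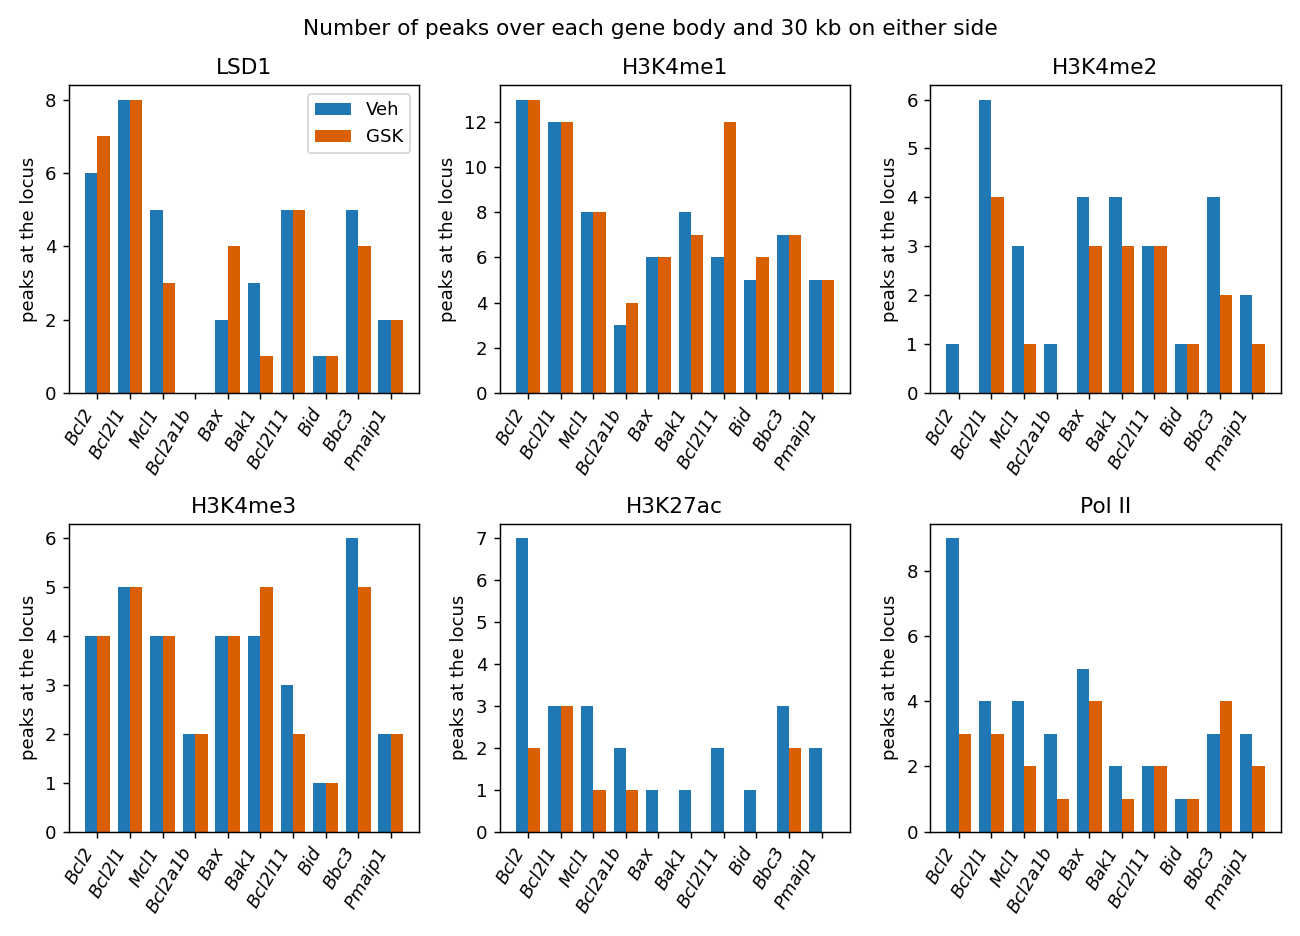
Number of peaks (y axis) over each member's gene body and 30 kb on either side (x axis), in 1 panel per antibody, with blue bars for Veh and orange bars for GSK. The largest steps are H3K4me1 at Bcl2l11, from 6 to 12, and Pol II at Bcl2, from 9 to 3.

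The share of peaks found in a single treatment was set beside that of the whole list. Among distal LSD1 peaks it was 11 of 24 in Veh (45.8%, Wilson 95% interval 27.9 to 64.9%) beside 65.1% of the list, and 8 of 21 in GSK (38.1%, 20.8 to 59.1%) beside 56.3%. Among LSD1 TSS peaks of any gene in the loci it was 3 of 13 in Veh beside 17% and 5 of 14 in GSK beside 28.1%. The distal LSD1 peaks that recurred were the stronger ones, with a median fold of 4.21 in Veh and 4.96 in GSK against 3.78 and 3.52 for those in 1 list. The same held in the whole lists, with 4.94 and 4.8 against 3.81 and 3.82.

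Distal Pol II stood apart most from its lists. At the loci 10 of 18 Veh peaks (55.6%, interval 33.7 to 75.4%) and 0 of 9 GSK peaks (upper limit 29.9%) lacked a counterpart, beside 85.7% and 87.1% of all distal Pol II peaks. The whole Pol II lists reach down to −log10 q of 0.595 in Veh and 0.523 in GSK, and no match for peak strength was made. Some of the shared distal peaks lay within 1 kb of predicted starts, in Bbc3 and 62.9 kb downstream of Bcl2l11. At TSSs the counts were 4 of 18 beside 29.4% and 0 of 14 beside 15.8%. For H3K4me1 the distal counts were 8 of 57 beside 12.3% in Veh and 14 of 62 beside 24.1% in GSK, and the TSS counts 2 of 16 beside 11.8% and 2 of 18 beside 27.2%. For H3K4me2 the distal counts were 9 of 17 beside 61.2% and 1 of 9 beside 18.3%, and the TSS counts 4 of 12 beside 33.9% and 1 of 9 beside 7.47%. Distal H3K4me3 gave 1 of 15 beside 8.02% and 1 of 14 beside 22.3%. H3K27ac gave 10 of 14 distal peaks beside 70.9% and 6 of 11 TSS peaks beside 60.6% in Veh, and 0 of 4 beside 4.96% and 0 of 5 beside 4.99% in GSK. Of these 24 shares, 21 had an interval that held the whole-list share, so they are not told apart from the background. The exceptions were distal Pol II in both treatments and distal LSD1 in Veh, whose interval ended just under the whole-list share. The intervals treat peaks of 1 locus as independent, which they are not.

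**Figure D5:**
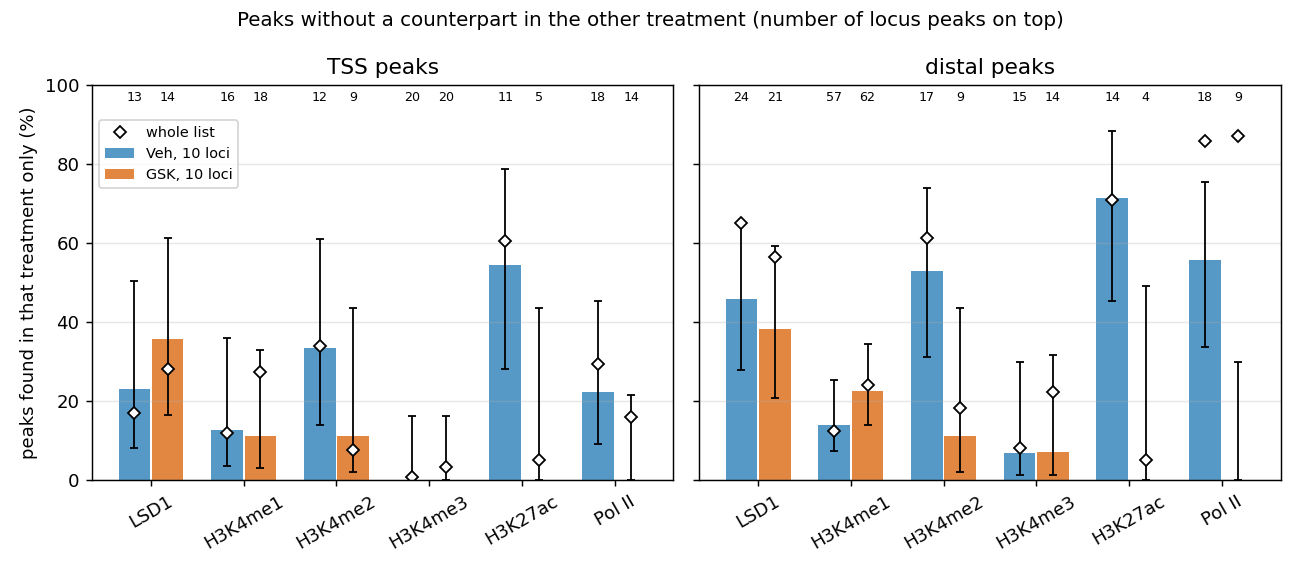
Share of peaks at the 10 loci found in that treatment only (y axis, %), for TSS peaks and distal peaks by antibody (x axis), with Veh in blue and GSK in orange. Error bars are Wilson 95% intervals for counting error, diamonds are the share in the whole list, and numbers on top are locus peaks. Distal Pol II lies below its diamonds, at 55.6% and 0% against 85.7% and 87.1%.

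Distal LSD1 peaks at the loci carried other marks of the same treatment at a share above that of all distal LSD1 peaks, H3K4me1 in GSK excepted. In Veh, H3K4me1 overlapped 13 of 24 (54.2%, beside 47.9% of the list), H3K4me2 9 (37.5%, 19.1%), H3K4me3 6 (25%, 15.8%), H3K27ac 8 (33.3%, 12.5%) and Pol II 6 (25%, 8.67%). In GSK the shares of 21 peaks were 47.6% for H3K4me1 (beside 48.2%), 19% for H3K4me2 (13.8%), 38.1% for H3K4me3 (22.4%), 19% for H3K27ac (4.18%) and 19% for Pol II (7.14%). Peaks of 1 locus are not independent, and no test was made.

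Motifs were searched in 14 promoters of 9 members and in 300 bases around the LSD1 summits of 11 of the 12 strongest distal LSD1 sites. A match says only that the letters are there. The distal sites were picked for high −log10 p, with overlapping Veh and GSK peaks merged. Their background holds distal LSD1 summits of any strength from both lists, so the sets are not alike. The SP1 box was found in 10 of 14 promoters, of 7 of 9 members, beside 35.7% of all promoters, and in 2 of 11 distal sites beside 14.4%. STAT matches (TTCNNNGAA) were in 0 promoters of members beside 8.3% of all, and in 4 of 11 distal sites beside 10.8% of 21946 distal LSD1 summits. Of those 4 sites, 3 were at Bcl2, at 198, 113 and 107 kb, and 1 at Bcl2l1, at 86.8 kb. RUNX matches were in 7 of 11 beside 37.5%, and in 1 of 14 promoters beside 16.8%. For the other motifs the distal and the promoter counts were 2 of 11 and 3 of 14 for ETS (beside 3.62% and 8.86%), 0 and 3 for NF-kB (5.89% and 5.82%), 0 and 2 for FOXO (3.68% and 3.65%), 2 and 2 for the E-box (5.41% and 7.15%) and 0 and 0 for the CRE (TGACGTCA, 0.583% and 1.79%). An NF-kB match overlapped an SP1 box in the Mcl1 promoter, and the other members' matches are counted as found. The 3 distal sites with a STAT match and the highest −log10 p for LSD1 are shown with STAT and RUNX matches in capitals.
Bcl2 distal LSD1 summit at 198 kb, chr1:106515699-106515898, plus strand: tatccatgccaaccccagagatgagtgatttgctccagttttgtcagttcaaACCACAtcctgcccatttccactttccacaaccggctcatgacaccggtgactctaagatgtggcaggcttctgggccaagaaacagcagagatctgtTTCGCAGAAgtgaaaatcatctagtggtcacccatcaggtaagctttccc
Bcl2 intron 1 LSD1 summit at 113 kb, chr1:106600921-106601120, plus strand: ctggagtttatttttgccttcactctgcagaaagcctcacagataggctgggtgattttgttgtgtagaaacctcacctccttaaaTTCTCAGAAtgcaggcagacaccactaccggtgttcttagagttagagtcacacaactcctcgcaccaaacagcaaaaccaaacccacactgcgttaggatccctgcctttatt
Bcl2l1 distal LSD1 summit at 86.8 kb, chr2:152741582-152741781, plus strand: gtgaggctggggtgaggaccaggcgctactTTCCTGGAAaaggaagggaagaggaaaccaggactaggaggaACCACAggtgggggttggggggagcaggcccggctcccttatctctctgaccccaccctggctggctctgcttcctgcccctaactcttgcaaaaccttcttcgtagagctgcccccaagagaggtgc

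Genes that act with the members were read from lists of the pathway. Of 13 other BCL2 relatives, 8 had H3K4me3 at a TSS in both treatments and 1, Bcl2l14, in Veh alone. LSD1 was at 4 in both, at Bcl2a1d in Veh alone and at Bmf, another BH3-only gene, in GSK alone. Pol II was at 2 in both, and at Bcl2a1d and Bad in Veh alone. All 10 genes of the apoptosome and the caspases carried H3K4me3 in both, 6 carried LSD1 in both, and Casp9 and Aifm1 carried LSD1 in GSK alone. Pol II was at 6 of them in both and at Apaf1, the apoptosome scaffold, in Veh alone. Of 5 inhibitor of apoptosis genes, all had H3K4me3 in both, 4 had LSD1 in both, and 4 had Pol II in both with Xiap in Veh alone. Over all curated genes, LSD1 was at a TSS in both treatments at 32%, in Veh alone at 4.46% and in GSK alone at 9.77%. H3K4me3 was in both at 49.8% and Pol II at 22.1%. Over these 3 lists, 4 genes had Pol II at the TSS in Veh alone (2 of 13, 1 of 10 and 1 of 5) and 0 in GSK alone. Of all genes 7.35% and 2.95% were in these states, and no member was in either. Lists this short do not set these counts apart from all genes.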

How the data were processed

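ChIP-seq peak lists of 12 libraries were used, 1 for each antibody and treatment, and the 4 input samples carried no list and were not analysed here. Per the study's methods, Bowtie2 placed reads on mm10 and kept unique hits, Samtools removed duplicates and MACS2 called the peaks. Input was the control of the calls, and which input served which library is not given in the sources used here. The deposited values of a peak are its fold enrichment (ratio of pileup to local background), −log10 p, −log10 q and a score made from the p or q, which was not used. LSD1 and Pol II lists begin at −log10 p of about 3 and histone lists at −log10 q of about 3, a stricter level.

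Peaks were placed on curated RefSeq transcripts of GRCm38.p6, without chromosome Y. Peaks sharing at least 1 bp were matched between treatments. Shares have Wilson 95% intervals. Overlap and centring code was tested on simulated data. Python 3.11.15 with pandas 2.3.3, scipy 1.17.1 and pysam 0.24.0 was used. Named distal sites were the 12 LSD1 sites with the highest −log10 p and up to 4 single-treatment sites per other antibody. Other sites mentioned were chosen after their values were seen. Members, lists, motifs and rules were chosen with earlier results of these data known. Sequence of chromosome 18 was not used.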

Additional observations from a re-analysis of the deposited data

How the results depend on the processing

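No paired analysis was possible because each group held 1 library and no test was made, and no library could be left out for the same reason. In all, 18 alternatives were planned and 1, predicted transcripts in the LSD1 shares, was chosen after seeing the data. The ratios of peak numbers kept within their intervals in 29 of 30 recalculations. The exception was H3K27ac, 0.818 in place of 0.36 with lists of equal length, a setting that itself raises this ratio. The share of Veh LSD1 peaks with a GSK peak moved beyond its interval in 1 of 16, for TSS peaks with 10 kb flanks (8 of 8, 100%, in place of 76.9%). Among distal peaks it ranged from 45% to 62.5% around 54.2%. Numbers of members with a TSS peak were within 1.5 times in 45 of 48. H3K4me1 in Veh rose from 5 to 8 with a 2.5 kb window, H3K27ac in Veh fell to 3 with equal lengths, and Pol II in GSK was 5 in place of 9 when −log10 q of at least 3 was required. Centred log2 values passed 2-fold in 1 of 88 recalculations, for Pol II at Bid with −log10 p (-1.05). Of 44 such values, 13 had the other sign without centring and 8 with −log10 p. At Bcl2l1, Bcl2l11 and Bbc3, which have several TSSs, the same pair of peaks can enter these numbers at more than 1 TSS. With predicted transcripts all 10 members had Pol II at a TSS in both treatments. Libraries of unequal depth limit what the absence of a peak shows, most of all for H3K27ac, whose GSK library was much shallower, and no alternative corrected for read numbers.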

Other observations

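Several sites in the loci carried H3K4me3 away from any curated TSS and were found in both treatments. At Bcl2 such sites lay 26.3, 102 and 113 kb into intron 1, and at Bcl2l1 24.1 and 39.3 kb past the last TSS, in intron 2. Of the 15 distal H3K4me3 peaks in Veh and 14 in GSK, 1 in each lacked a counterpart, 26.1 kb into Bcl2l11 and 28.4 kb downstream of Bak1. The site 62.4 kb downstream of Bcl2l11 lies within 1 kb of a start of Gm14009 in predicted RefSeq and in GENCODE, and there H3K4me3, H3K4me2 and Pol II lay in both treatments and H3K27ac (3.84) in Veh alone.

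Promoters of neighbours differed from those of the members beside them. At Tpx2, a spindle gene next to Bcl2l1, H3K4me3 was 7.27 and 7.25 and H3K27ac 5.52 and 6.67 in Veh and GSK. Pol II at Itpr3, upstream of Bak1, was in Veh alone with 5.34, as were its 2 LSD1 peaks, 4.08 and 3.1. At Id1, past the 3′ end of Bcl2l1, the lists held LSD1 at different positions, 4.19 in Veh and 4.89 in GSK.

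Of the single-treatment distal sites named by rank, the strongest H3K4me1 site was in intron 10 of Gys1, 19.4 kb downstream of Bax, in GSK alone with a fold of 4.92. The strongest for H3K4me2 lay 10.2 kb downstream of Bcl2a1b, in Veh alone with 5.32, and H3K4me1 lay on it in both treatments.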
